A study of Mus musculus with 12 samples.

Results

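Prosaposin and 7 lysosomal proteins that break down sphingolipids were followed in primary mouse adult fibroblasts given thymol. The 8 genes (Psap, Gm2a, Hexa, Glb1, Gla, Galc, Smpd1 and Asah1) were chosen by name for their shared pathway, with earlier results of these data known. All 8 were found by symbol among the 10697 genes of the expression table. Cultures were grown from biopsies of wild-type C57BL6/j mice. The thymol group held 6 libraries of cells kept for 24 h in medium with 100 µM thymol, a phenolic terpenoid of thyme that was dissolved in DMSO, and the control group held 6 libraries of cells given the same volume of DMSO alone. The age of the mice, the biopsy site and whether the numbered libraries came from separate mice or cultures were not given in the sources used here, so the p-values measure the spread between these libraries, which may be partly technical. Transcripts were counted by QuantSeq, which reads transcripts with a poly(A) tail at their 3′ end, and read numbers therefore do not scale with transcript length. Whether genes differ in other ways in how well they are read was not checked. Levels set side by side between genes are thus comparisons of reads. Levels are log2 CPM (log2 of reads counted relative to the library total, on scaled library totals and with a small constant added), and each difference is the thymol mean minus the DMSO mean on that scale.

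Sphingolipids are membrane lipids built on ceramide. Those that reach the lysosome are taken apart one sugar or head group at a time, and for the lipids with short sugar chains the enzymes need small helper proteins that lift the lipid out of the membrane. Prosaposin is the precursor of the helper proteins saposin A, B, C and D, and inherited loss of single genes of this pathway causes lysosomal storage diseases such as Tay-Sachs, Krabbe, Fabry, Niemann-Pick and Farber disease.

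The libraries held between 5435985 and 9049796 reads recovered from the table. The labelled cell type was checked against its markers. Of 10 fibroblast markers, 8 were in the table (Lum and Fap were not), and Col1a1 averaged 11.95 log2 CPM in DMSO. All 15 macrophage markers were in the table as well, and Lyz2, the lysozyme gene of macrophages and neutrophils, averaged 13.61 log2 CPM in DMSO, so markers of both cell types were abundant. No marker looked for of epithelial cells, Schwann cells or T cells was in the table. A bulk measurement cannot tell fewer cells of a type from less RNA per cell.

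With thymol, Psap transcripts rose by 1.26-fold, and all 6 thymol libraries lay above all 6 DMSO libraries. Psap was the only one of the 8 genes past the threshold of an adjusted p of 0.05 in limma. Galc and Hexa had higher means with thymol, and 5 of the 6 thymol libraries lay above the highest DMSO library for each, but neither passed the threshold. The other 5 genes differed by 0.12 or less and their groups overlapped. Among all 10697 genes, 2.22% passed the threshold, 0.654% as higher and 1.57% as lower with thymol, and 0.524% had every thymol library above every DMSO library. Psap ranked 32 by p-value among all genes.

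**Figure D1:**
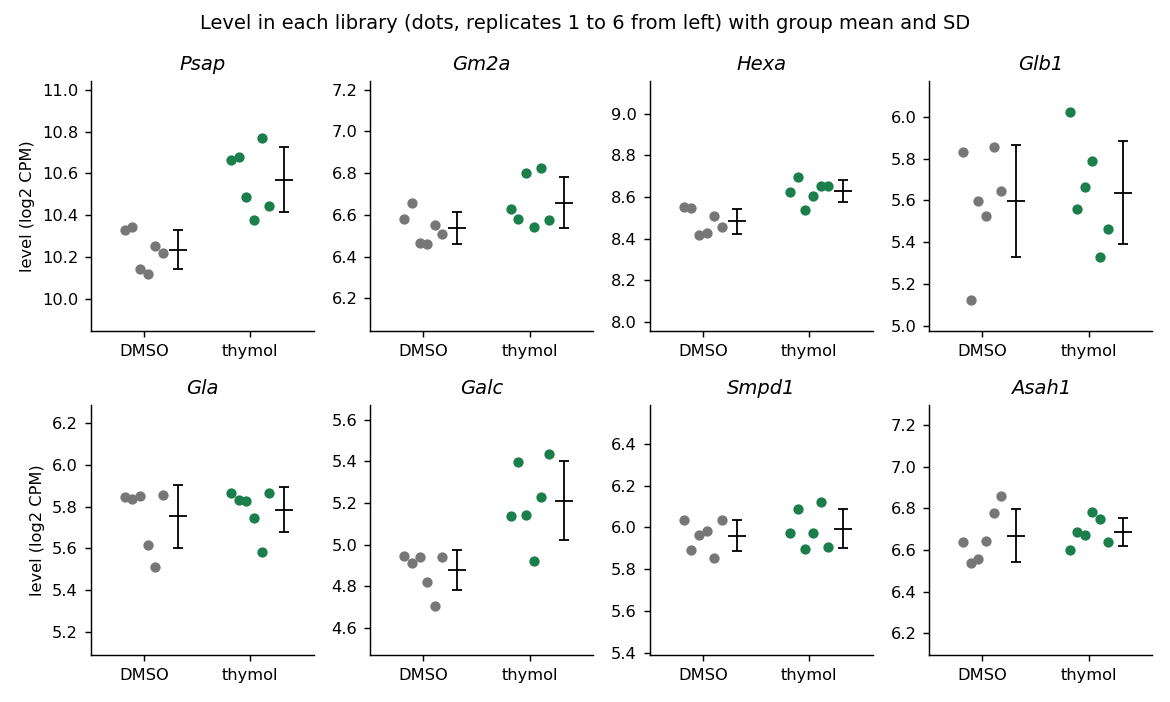
Level of each of the 8 genes (log2 CPM, vertical axis; every panel spans the same range) in the 6 DMSO libraries (grey) and the 6 thymol libraries (green), with the group mean and SD beside the dots. The lowest thymol library for Psap lies at 10.38 and the highest DMSO library at 10.35, whereas the groups overlap for each of the other 7 genes.

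Psap was by far the most abundant of the 8, and in the whole table it held rank 60 by mean level. On the log2 CPM scale the DMSO libraries ran from 10.12 to 10.35 with a median of 10.24, and the thymol libraries from 10.38 to 10.77 with a median of 10.58. The groups did not overlap, though thymol replicate 4 lay only just above the highest DMSO library, and thymol replicates 1, 2 and 5 were the highest. Mean levels were 10.57 ± 0.16 log2 CPM in the thymol libraries and 10.23 ± 0.094 log2 CPM in the DMSO libraries (SD, n = 6 for both). The difference was 0.34 on the log2 scale (SE 0.054, 95% interval 0.23 to 0.44), with an adjusted p of 2.7e-05 in limma. An exact permutation test, two-sided and with 924 relabellings, gave p = 0.0022, the smallest value it can give. Thymol replicate 5, which was also the most deeply sequenced library, had the highest level, and without it the difference was 0.30 with an adjusted p of 0.00013 in limma. The call was lost when limma's error was not drawn to that of other genes of like level, where the adjusted p was 0.099. From the spread of its own 12 libraries alone the SE of the Psap difference was 0.074. Between 7400 and 15820 reads per library lay behind these values, so the error from the number of reads was small. These reads were PCR products, and how many molecules they stand for was not known.

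Psap is on chromosome 10 at 60277627 to 60302597 (GRCm38, plus strand), with 15 exons in the transcript used here, and its last exon, where 3′ reads fall, is at 60301694 to 60302597. No other annotated gene lay over the last exon of any of the 8 genes. RefSeq's promoter table for GRCm38.p6 held windows from 250 bases before to 50 after the start for 7 of the 8 genes, with 2 windows for Psap. These were searched for CACGTG, a palindrome that reads the same on both strands and is the core of the sites bound by TFEB and related factors at lysosomal genes, and for the longer TCACGTGA that contains it. The upstream 250 bases are shown for Psap, the gene that rose, and for Glb1 and Gla, the 2 of the 8 genes whose windows held the motif. CACGTG is in capitals and each sequence reads 5′ to 3′ on the strand of its gene.
Psap, chr10:60277378-60277627, plus strand: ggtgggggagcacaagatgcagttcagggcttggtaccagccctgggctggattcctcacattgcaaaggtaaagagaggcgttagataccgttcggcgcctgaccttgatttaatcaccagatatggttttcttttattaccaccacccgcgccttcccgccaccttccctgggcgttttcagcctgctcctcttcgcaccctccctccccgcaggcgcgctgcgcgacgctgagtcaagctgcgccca
Glb1, chr9:114400828-114401077, plus strand: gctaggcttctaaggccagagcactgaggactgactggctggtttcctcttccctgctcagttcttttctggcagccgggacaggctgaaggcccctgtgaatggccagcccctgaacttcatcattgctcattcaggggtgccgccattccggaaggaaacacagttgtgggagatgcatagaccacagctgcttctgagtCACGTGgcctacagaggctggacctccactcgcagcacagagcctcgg
Gla, chrX:134601006-134601255, minus strand: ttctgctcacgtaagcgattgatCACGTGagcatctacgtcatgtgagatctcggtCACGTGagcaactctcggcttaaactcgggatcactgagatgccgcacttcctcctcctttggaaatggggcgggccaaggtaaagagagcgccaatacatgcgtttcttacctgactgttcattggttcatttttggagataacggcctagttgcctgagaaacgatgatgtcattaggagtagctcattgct
The motif began 48 bases before the start in Glb1, and 227 and 194 bases before it in Gla, where both copies were the longer TCACGTGA. It was in neither window of Psap and in none of Gm2a, Hexa, Galc and Smpd1. For comparison, 7.15% of all 32851 windows held CACGTG and 0.97% held TCACGTGA, and among windows of genes in the expression table the shares were 10.07% and 1.98%. A match in these letters describes the sequence and is not a measured binding site. Only these exact letters were searched, and only within the windows, so their absence does not show that a gene lacks such sites.

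The second helper protein is Gm2a, the GM2 activator, which presents a ganglioside to β-hexosaminidase. Its DMSO libraries ran from 6.46 to 6.66 log2 CPM with a median of 6.53, and its thymol libraries from 6.54 to 6.82 with a median of 6.60. Thymol replicates 3 and 5 were above the highest DMSO library and the other 4 lay within the DMSO range. The difference was 0.12 on the log2 scale (95% interval -0.03 to 0.27, adjusted p = 0.58 in limma), so a rise of up to 1.21-fold was within the interval. With the odd-numbered libraries alone it was 0.22, and with the even-numbered ones alone 0.023 (adjusted p = 0.60 and 0.97 in limma).

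Hexa encodes the α subunit of β-hexosaminidase A, the enzyme that removes the terminal sugar of the ganglioside held by the GM2 activator. It was the second most abundant of the 8 genes. Its DMSO libraries ran from 8.42 to 8.55 log2 CPM with a median of 8.48, and its thymol libraries from 8.54 to 8.70 with a median of 8.64. Only thymol replicate 3 lay within the DMSO range, and its spread was the narrowest of the 8 genes, with an SD of 0.054 with thymol and 0.060 with DMSO (n = 6 each). The difference of 0.14 on the log2 scale (SE 0.052, 95% interval 0.04 to 0.25) did not pass limma's threshold, with an adjusted p of 0.17. Taken alone, its exact two-sided permutation p was 0.0065. This p was 1 of 8 computed, 1 for each gene, and was not adjusted.

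Galc encodes galactosylceramidase, which removes galactose from galactosylceramide and from psychosine, and it was the least abundant of the 8. Its DMSO libraries ran from 4.71 to 4.94 log2 CPM with a median of 4.92, and its thymol libraries from 4.92 to 5.44 with a median of 5.19. Thymol replicate 4 lay within the DMSO range, and thymol replicates 2 and 6 were the highest. The mean difference was 0.33 on the log2 scale, which is the size of the Psap difference, but its SE was 0.116 and its 95% interval 0.10 to 0.57. The adjusted p was 0.14 in limma, and the unadjusted exact two-sided permutation p was 0.0087. Galc rested on 161 to 338 reads per library, against 7400 or more for Psap. Without the mean-variance trend the SE of the Galc difference was 0.091 and that of Psap 0.082, and Galc stayed above the threshold (adjusted p = 0.15).

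**Figure D2:**
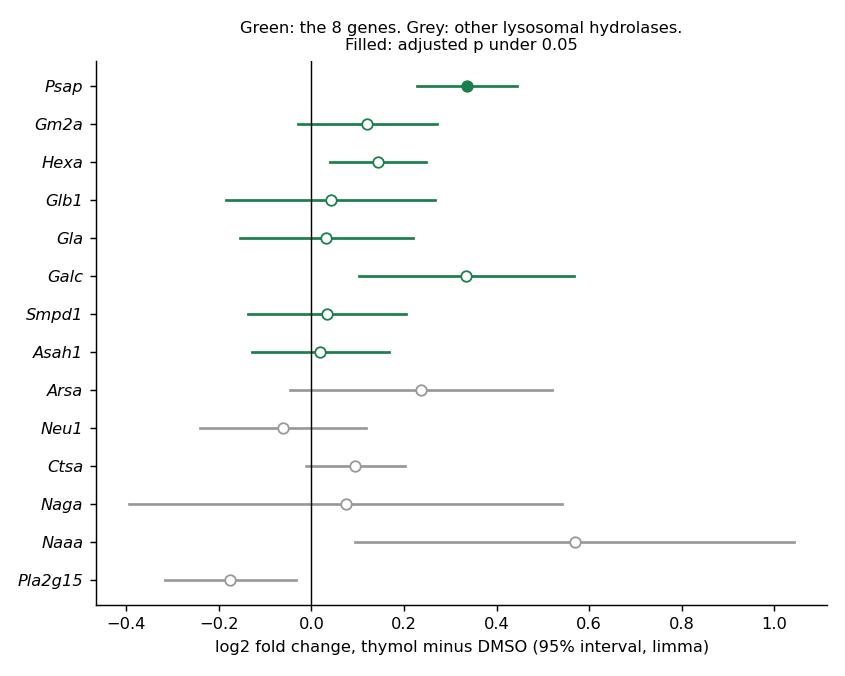
Difference in level (log2 scale, thymol minus DMSO, horizontal axis) with its 95% interval from limma for the 8 genes (green) and for 6 further lysosomal sphingolipid hydrolases (grey). A filled dot marks an adjusted p under 0.05, which Psap alone reaches, and the intervals of Psap (0.23 to 0.44) and Galc (0.10 to 0.57) overlap.

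The exoglycosidases Glb1 and Gla showed no difference larger than the spread between libraries. Glb1, the β-galactosidase that cleaves GM1 ganglioside and whose activity is stained as a sign of senescent cells, ran from 5.12 to 5.86 log2 CPM with DMSO (median 5.62) and from 5.33 to 6.02 with thymol (median 5.61). DMSO replicate 2 was the lowest and thymol replicate 1 the highest of the 12 libraries, and Glb1 had the widest spread of the 8 genes, with an SD of 0.25 with thymol and 0.27 with DMSO. Its difference was 0.04 (95% interval -0.18 to 0.27, adjusted p = 0.95 in limma). Gla, the α-galactosidase A that removes the terminal galactose of globotriaosylceramide, ran from 5.51 to 5.86 log2 CPM with DMSO (median 5.84) and from 5.58 to 5.86 with thymol (median 5.83). The groups overlapped almost wholly, with DMSO replicates 4 and 5 and thymol replicate 5 the lowest. Its difference was 0.03 (95% interval -0.16 to 0.22, adjusted p = 0.96 in limma).

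Smpd1 and Asah1 act at the end of the path. Smpd1, the acid sphingomyelinase that splits sphingomyelin into ceramide and phosphocholine, ran from 5.85 to 6.03 log2 CPM with DMSO (median 5.97) and from 5.90 to 6.12 with thymol (median 5.97). Its medians were alike, and only thymol replicates 2 and 5 exceeded the DMSO range. The difference was 0.03 (95% interval -0.14 to 0.20, adjusted p = 0.95 in limma). Asah1, the acid ceramidase that releases sphingosine from ceramide, ran from 6.54 to 6.86 log2 CPM with DMSO (median 6.64) and from 6.60 to 6.78 with thymol (median 6.68). Every thymol library lay within the DMSO range. The difference was 0.02 (95% interval -0.13 to 0.17, adjusted p = 0.97 in limma). For Glb1, Gla, Smpd1 and Asah1 the intervals reached at most 1.20-fold upwards and 0.88-fold downwards, so changes larger than these lay outside the intervals, while smaller ones could not be told from no change.

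All 8 genes had a difference above 0, where 50.9% of all genes did, and the median of the 8 was 0.08 against 0.0026 for all genes. Before adjustment, 3 of the 8 (Psap, Hexa and Galc) had p under 0.05 in the higher direction and none in the lower, where 5.35% of all genes were higher and 6.44% lower by that rule. Because the 8 genes were chosen with earlier results of these data known, this comparison with all genes is a description and was not tested. The signs of Asah1, Glb1 and Gla rested on single libraries, since leaving out 1 library took their differences to between -0.0071 and 0.06, -0.05 and 0.10, and -0.02 and 0.07.

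In DMSO the 8 genes fell in a clear order by reads. Psap stood first with a mean of 1206 CPM, followed by Hexa with 358 CPM, and these were followed by Asah1 with 102 and Gm2a with 92.7 CPM, whose libraries overlapped. Next came Smpd1 with 62.0, Gla with 53.9 and Glb1 with 48.8 CPM, where Smpd1 overlapped Gla and Gla overlapped Glb1, and Galc was last with 29.1 CPM. There was no overlap between libraries at the other steps of the order. Psap thus supplied 61.7 ± 1.0% of the reads of all 8 genes in DMSO (SD, n = 6), with a range of 60.8 to 63.5%. With thymol it supplied 65.4 ± 2.1% (n = 6), with a range of 62.7 to 68.1%, and thymol replicates 4 and 6 lay within the DMSO range. The summed level of the other 7 genes was 716 to 780 CPM in DMSO and 785 to 826 CPM with thymol, and here the groups did not overlap. Hexa was the largest part of this sum, and its mean was 358 CPM in DMSO and 395.5 CPM with thymol. Gm2a and Galc also had higher means with thymol. The thymol means of Asah1 (102.9 CPM), Smpd1 (63.5), Glb1 (50.1) and Gla (55.0) were close to their DMSO means. The higher sum was therefore not a rise shared by all 7 genes. These shares and sums are descriptions of chosen genes and were not tested.

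Set against each partner in the same library, there were 13.0 Psap reads for each Gm2a read in DMSO and 15.1 with thymol, and 3.36 for each Hexa read in DMSO and 3.84 with thymol. For Asah1 the ratio was 11.8 in DMSO and 14.7 with thymol. The ratio to Galc stayed level, at 41.0 Psap reads for each Galc read in both groups, since the mean log2 levels of both genes differed by the same amount. For each of the 7 partners the ratios of the groups overlapped.

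**Figure D3:**
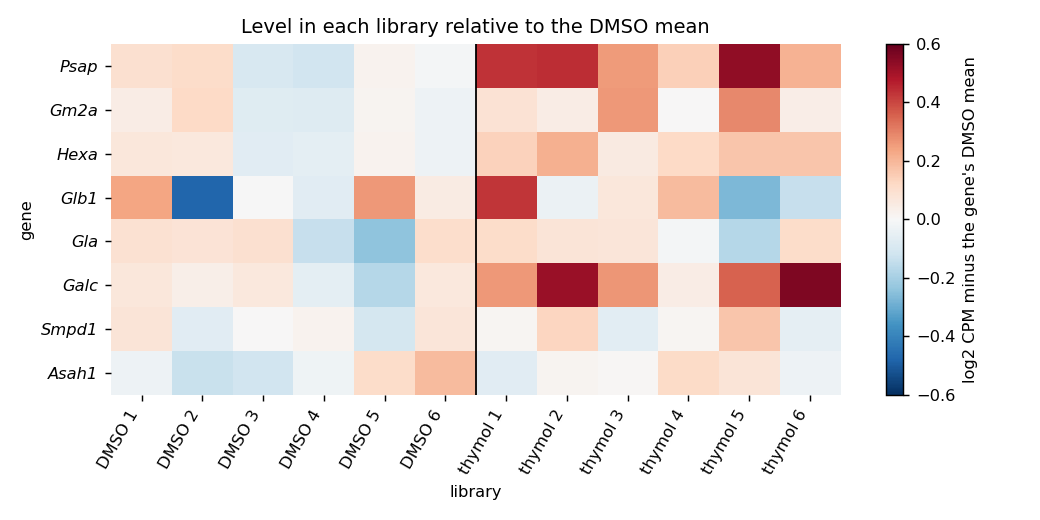
Level of each of the 8 genes (rows) in each library (columns) as the difference from the gene's DMSO mean on the log2 scale (red higher, blue lower), with DMSO libraries left of the line and thymol libraries right of it. Psap is red in all 6 thymol libraries, Galc is palest in thymol replicate 4, and Glb1 varies in both directions in both groups.

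The 8 genes did not vary together as a block. Over the 28 pairs, the correlation of deviations from the group means ran from -0.44 to 0.65 with a median of -0.0055 (n = 12 libraries, as a description). In only 2 pairs did it exceed 0.5, Psap with Hexa (0.65) and Psap with Gm2a (0.59). Libraries high in Psap within their group thus tended to be high in Hexa and in Gm2a, but not every one was. Thymol replicates 1 and 2, high in Psap, lay at 6.63 and 6.58 log2 CPM for Gm2a, below its thymol mean of 6.66. Asah1 (-0.09), Gla (-0.08) and Glb1 (-0.18) showed little relation to Psap. Values of 1 library share its depth and scaling, which these correlations do not remove.

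Among 5393 genes with a mean level above 5 log2 CPM, the gene most like Psap over the 12 libraries was Ctsd, which encodes cathepsin D, the lysosomal aspartic protease. Its Pearson r with Psap was 0.89, and 0.61 within groups. Ctsd rose by 0.31 on the log2 scale (adjusted p = 6.9e-06 in limma), close to the Psap difference, but without the mean-variance trend its adjusted p was 0.066. Hexa came next (r = 0.88), followed by Rpn1 (0.87), a subunit of the enzyme that attaches N-linked sugar chains in the endoplasmic reticulum, and Syngr1 (0.87), a synaptic vesicle membrane protein. Atp6v0d2 (0.86), a subunit of the proton pump of lysosomes and of osteoclasts, and Ddx18 (0.85), an RNA helicase of the nucleolus, completed the list, and the within-group r was 0.64, 0.54, 0.46 and 0.79 for Rpn1, Syngr1, Atp6v0d2 and Ddx18. Of these, Syngr1 rose by 0.30 (adjusted p = 0.0091 in limma) and Atp6v0d2 by 0.82 (adjusted p = 1.4e-08), while Rpn1 differed by 0.14 (adjusted p = 0.20) and Ddx18 by 0.28 (adjusted p = 0.31). Syngr1 missed the threshold without the mean-variance trend (adjusted p = 0.076) and with the odd-numbered (0.21) or even-numbered (0.24) libraries alone. Galc stood at rank 43 and Gm2a at rank 58 of the 5393, and Glb1 at rank 2921 with r = -0.03. An r over both groups is raised for any gene that differs between them in the same direction, which is why the within-group value is given beside it.

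The wider pathway was described with 5 lists of genes. Of the 9 listed symbols for other lysosomal sphingolipid hydrolases, 8 were measured, none passed the threshold, and the median difference was 0.13, with 6 of 8 above 0. Before adjustment 2 of them were higher and 1 was lower at p under 0.05. Pla2g15, a lysosomal phospholipase that also transfers acyl groups to ceramide, ran from 6.95 to 7.33 log2 CPM in DMSO and from 6.82 to 7.02 with thymol. No thymol library lay above the DMSO median, though the groups overlapped. Its difference was -0.18 (95% interval -0.32 to -0.03, adjusted p = 0.25 in limma).

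None of the other lists on lipid handling held a gene past the threshold in limma. At an unadjusted p under 0.05, 0 sorting genes were higher and 1 was lower, 1 breakdown gene was higher and 0 were lower, and 0 synthesis genes were higher and 1 was lower. Of 13 sorting and partner genes, which carry the enzymes to the lysosome or bind prosaposin, 11 were measured with a median of 0.02. M6pr, the cation-dependent mannose 6-phosphate receptor, differed by -0.18 (adjusted p = 0.30 in limma), and Gnptab, which makes the mannose 6-phosphate tag, by 0.19 (adjusted p = 0.56). Grn, the progranulin that binds prosaposin, and Sort1, a receptor for both, were not picked by the naming rule, and differed by 0.06 and 0.04. Of 17 other sphingolipid breakdown genes, 12 were measured with a median of 0.04, with Cerk, the ceramide kinase, at 0.19 (adjusted p = 0.37) and Sgpp1, a sphingosine 1-phosphate phosphatase, at 0.10 (adjusted p = 0.79). Of 31 listed symbols for synthesis, 20 were measured with a median of -0.03. There Ormdl2, a brake on the first enzyme of the path, differed by -0.41 (95% interval -0.74 to -0.08, adjusted p = 0.25) on 62 to 178 reads per library, and Cers2, a ceramide synthase for very long acyl chains, by -0.10 (adjusted p = 0.55).

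All 17 listed lysosomal enzymes of other substrates were measured, and their median was -0.0053. Hgsnat alone passed, and it was lower with thymol. This gene encodes the lysosomal acetyltransferase needed to break down heparan sulfate. Its libraries ran from 6.39 to 6.69 log2 CPM in DMSO and from 6.00 to 6.42 with thymol, so that thymol replicate 1 alone reached into the DMSO range. Hgsnat fell by 0.39 on the log2 scale (95% interval -0.56 to -0.23, adjusted p = 0.0017 in limma). The call ended without the mean-variance trend (adjusted p = 0.064) and with the odd-numbered libraries alone (-0.32, adjusted p = 0.34). At an unadjusted p under 0.05, 1 gene of this list was higher and 1, Hgsnat, was lower.

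**Figure D4:**
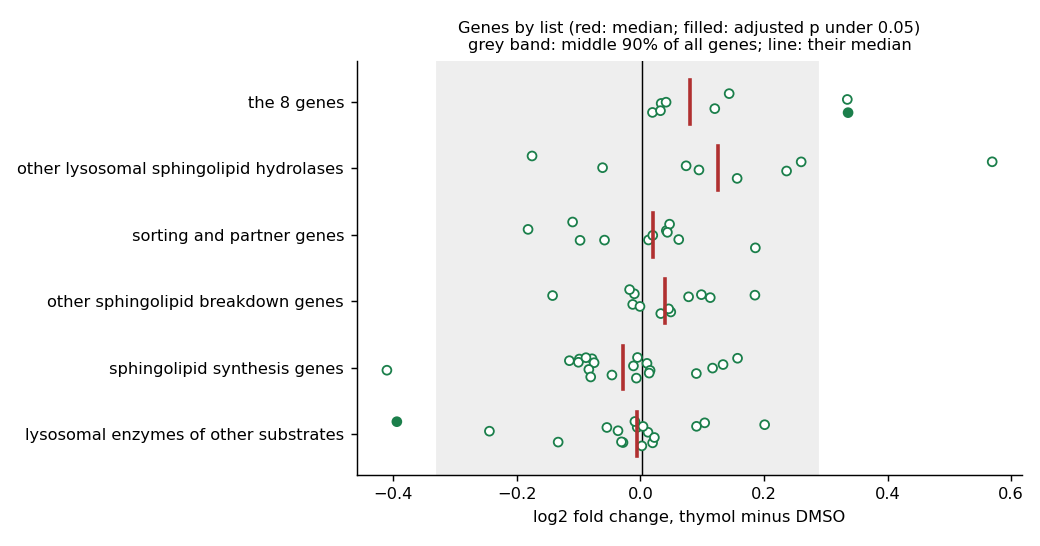
Difference in level (log2 scale, thymol minus DMSO, horizontal axis) of every measured gene of the 8 and of the 5 lists, with the median of each list in red and a grey band that spans the middle 90% of all genes, from -0.33 to 0.29. Filled dots mark an adjusted p under 0.05 in limma, which are Psap on the right and Hgsnat on the left, and the medians run from -0.03 to 0.13.

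Markers of other cells were set beside the Psap result. The summed level of the 15 macrophage markers was 19114 to 21097 CPM in DMSO and 19271 to 22996 CPM with thymol, with a median difference of -0.01 over the 15. Lyz2 weighed most in this sum, at 13.61 log2 CPM in DMSO, with C1qa next at 10.48. Of the 15 markers, Mpeg1, a pore-forming protein of phagocytes, rose by 0.21 (adjusted p = 0.021 in limma), and Itgam, an integrin of myeloid cells, fell by 0.31 (adjusted p = 0.00071). The summed level of the 8 fibroblast markers in the table was 8212 to 9219 CPM in DMSO and 7271 to 7832 CPM with thymol, without overlap. Among them the collagen genes Col1a1 (by 0.28, adjusted p = 2.9e-05) and Col3a1 (by 0.54, adjusted p = 4.4e-10) fell by these amounts on the log2 scale in limma. No other marker of the 8 passed the threshold, and the median difference over the 8 was -0.12. A sum of this kind is weighted towards its most abundant genes. The 3 mural cell markers in the table summed to 249 to 295 CPM in DMSO and 177 to 261 CPM with thymol, and among them Myh11, a smooth muscle myosin, fell by 0.37 (adjusted p = 0.0070 in limma). Myh11 alone of the 3 passed the threshold, and the median difference over the 3 was -0.02. Fabp4, the adipocyte marker in the table, which macrophages also express, ran from 75.0 to 91.5 CPM in DMSO and from 89.2 to 110 CPM with thymol (adjusted p = 0.069). The part of cell makeup in the Psap difference was not tested, since these data do not tell which cells the Psap reads came from.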

How the data were processed

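The 12 QuantSeq 3′ mRNA libraries, 6 with thymol and 6 with DMSO, were analysed from the deposited table. According to the submitters' processing notes, the authors aligned reads to GRCm38 with STAR 2.5.3 and counted them with HTSeq 0.6.1. Genes under 30 reads in 6 samples and genes without annotation were removed, and the trimmed mean of M-values (TMM) served to scale the libraries. The deposited values were log2 CPM with a prior count. The authors tested counts with edgeR, but the table holds log2 values, so limma was the main test here and no negative binomial model was fitted.

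Whole reads were recovered from the steps between low values, and every value below 200 reads (100%) came out whole to within 0.02 of a read. The recovered totals numbered 6530067 ± 1300705 per thymol and 7066612 ± 663203 per DMSO library (SD, n = 6 each). Of the genes, 98.0% met the authors' minimum of 30 reads in 6 samples when it was applied to the recovered reads. The authors also give this minimum as a threshold on CPM values, and whether that accounts for the rest was not checked. Reads were PCR products without molecular identifiers, so depth bears on counting error alone.

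Levels were compared with limma 3.58.1 in R 4.3.3 (lmFit and trended eBayes on 2 groups without covariates), two-sided, with Benjamini-Hochberg adjustment over all 10697 genes and a threshold of 0.05. Adjusted p-values come from that fit. Single genes were also compared by an exact permutation test over the 924 relabellings. The 8 genes and the lists were chosen with earlier results of these data known. All 8 were named, and from each list the genes past the threshold, otherwise the 2 with the smallest p. Likeness to Psap was ranked by Pearson r among genes with a mean above 5 log2 CPM, and the 5 highest outside the 8 were named. One gene picked by this rule is not reported here. Other genes named, the cell type markers among them, fell outside this rule and were chosen after their values were seen. In 2 lists a gene was written under both an older and a newer symbol. Positions are those of GENCODE vM21 on GRCm38, and promoter sequences are from RefSeq on GRCm38.p6.

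Alternatives were the fit without a trend, robust moderation, voom on the recovered reads, a replicate block, the odd or even replicate number as a term and each alone, pseudocounts of 0.5 and 10 CPM, a minimum mean of 5, median centring, quantile normalization, the recovered reads over their own total, and each library left out.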

Additional observations from a re-analysis of the deposited data

Results flagged for a closer look

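In 48 groups of 6 libraries, 2 held a library whose distance from its nearest neighbour exceeded Dixon's 95% limit, where chance gives about 1 in 20, or 2.4. For Rpn1, the oligosaccharyltransferase subunit whose pattern was among those most like Psap, DMSO replicate 4 lay at 8.32 log2 CPM and the next DMSO library at 8.43. Thymol replicate 5 held 9049796 recovered reads, and the next deepest thymol library held 6585162. That library also had the highest Psap level, and the Psap difference without it is given with the Psap values.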

How the results depend on the processing

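Psap kept its direction under every alternative run, from 0.27 (even-numbered libraries alone) to 0.40 (odd-numbered libraries alone), and passed the threshold under all but the fit without a mean-variance trend (adjusted p = 0.099 in limma). With each library left out it lay between 0.30 and 0.37 and 1 of the 8 genes passed each time. Without the trend, 57 genes passed in all, 0 of the 8, and 0 of the lysosomal enzymes of other substrates, where Hgsnat had an adjusted p of 0.064. With the odd-numbered libraries alone, 70 genes passed in all, Hgsnat was at an adjusted p of 0.34, the count of that list was 0, and Glb1 turned to -0.089. The count of all genes lay between 172 and 270 with a library left out. With each library left out Glb1 ran from -0.054 to 0.103, negative without thymol replicate 1 or DMSO replicate 2, Asah1 from -0.0071 to 0.057, negative without DMSO replicate 2 or 3, and Gla from -0.016 to 0.073, negative without DMSO replicate 5. The cause was not tested, beyond the fewer libraries in the odd-numbered and left-out fits.

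Whether the replicate numbers pair the samples was not given in the sources used here. Over genes with a mean above 5 log2 CPM, the correlation of same-numbered deviations ran from -0.05 to 0.27. It exceeded 0.1 for numbers 1 and 4 only, which does not settle the question. For Psap, replicates 1, 2 and 5 were the highest in both groups, and with the replicate block its SE was 0.041. With the replicate block, 332 genes passed, against 238, and Psap passed at an adjusted p of 4.4e-08 in limma as the only one of the 8. Alternatives for genes outside the 8 were added after seeing the data. Among them Ctsd (adjusted p = 0.066) and Syngr1 (0.076) missed the threshold without the trend, and Syngr1 also with the odd-numbered (0.21) or even-numbered (0.24) libraries alone. Galc rested on the fewest reads of the 8 genes, but Glb1, with 238 to 426 reads per library, had a wider spread. The part of depth in these spreads was not tested.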

Other observations

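Outside the naming rule, and chosen after their values were seen, 2 further hydrolases of the lysosomal sphingolipid list had means above those of DMSO without passing the threshold in limma. Naaa, the acid amidase that resembles acid ceramidase and cleaves N-acylethanolamines, differed by 0.57 on the log2 scale (95% interval 0.09 to 1.04, adjusted p = 0.28) at a low level, with 3.27 log2 CPM with thymol and 2.70 with DMSO, and 4 of its 6 thymol libraries lay above the highest DMSO library. Arsa, the arylsulfatase that acts on sulfatide with the help of saposin B, differed by 0.24 (adjusted p = 0.55). Among enzymes of other lysosomal substrates, Naglu, which like Hgsnat acts on heparan sulfate, differed by 0.20 (adjusted p = 0.36), with all 6 thymol libraries above the DMSO median, and Idua, another enzyme of that path, by -0.24 (adjusted p = 0.53).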
